A study of Schizosaccharomyces pombe with 8 samples.

Results

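The phosphate-regulated genes pho84 and pho1, the gene SPBC8E4.02c just before them and the non-coding RNA SPNCRNA.1343 near the tgp1 gene were examined in a list of chromatin regions bound by the fission yeast RNase III Pac1. These 4 genes, of 167 named in the list, were taken because the list names them. Their presence in it is therefore a description and was not tested. Over the whole genome 156 of 6870 annotated genes, or 2.27%, overlapped a peak. They made 5 of the 172 gene-peak pairs and lay in 3 of the 88 peaks, all on chromosome II. Chromatin immunoprecipitation with sequencing (ChIP-seq) of Schizosaccharomyces pombe made up the series, with 8 libraries in all. The list came from 2 immunoprecipitates of TAP-tagged Pac1 and their 2 inputs, all from strain FBY2277, a haploid h+ strain that carries Pac1-TAP-natMX6 beside the markers ade6-M216, leu1-32, ura4-D18 and his3-D1. Cells were in logarithmic growth in Edinburgh minimal medium (EMM) with amino acid and base supplements, and the labels name no phosphate starvation. The other 4 libraries, RNA polymerase II (8WG16 antibody) immunoprecipitates and inputs of a Pac1 anchor-away strain (Pac1-AA) and its control (CTL), both given rapamycin at 2.5 µg/mL for 2 h, were not analysed here.

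Fission yeast takes up and scavenges phosphate with a small set of secreted or membrane proteins. Pho84 is a phosphate transporter of the plasma membrane, Pho1 is a cell-surface acid phosphatase, and Tgp1 is a transporter of glycerophosphodiesters. Where phosphate is plentiful, each of these 3 genes is kept low by transcription of a long non-coding RNA (lncRNA) from a promoter upstream of it: prt2 before pho84, prt (also nc-pho1) before pho1 and nc-tgp1 before tgp1. Each lncRNA is read in the direction of the gene it precedes and interferes with that gene's promoter, so where lncRNA transcription ends decides whether the gene can be made. RNase III enzymes cleave double-stranded stems of RNA hairpins, and the library comparison asked on which genes Pac1 sits.

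The list gave 1 p-value for each peak, combined by the authors over both replicates, with no peak height and no value for either library. No spread between replicates can thus be given for any position, width or gap, and the depth behind the peaks is unknown. All 3 peaks at these genes were listed at a p-value of 0, as were 34 of the 88 peaks, so the p-value sets no order among them. No immunoprecipitate from an untagged strain entered the list, and its part in these peaks was not tested.

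The lncRNA promoters are printed first because the 3 peaks are placed against them. Each line holds the 110 bases before and the first 10 bases of one lncRNA as annotated by RefSeq on build ASM294v3. Capitals mark 2 motifs: CAGTCAC, the core of the HomolD promoter box of fission yeast, and TATATA, a common promoter element bound by TBP.
prt2: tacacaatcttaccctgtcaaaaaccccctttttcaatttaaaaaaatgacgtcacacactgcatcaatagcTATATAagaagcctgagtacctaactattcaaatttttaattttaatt
nc-pho1: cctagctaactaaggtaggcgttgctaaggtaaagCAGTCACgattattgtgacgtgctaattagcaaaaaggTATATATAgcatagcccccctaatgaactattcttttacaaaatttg
nc-tgp1: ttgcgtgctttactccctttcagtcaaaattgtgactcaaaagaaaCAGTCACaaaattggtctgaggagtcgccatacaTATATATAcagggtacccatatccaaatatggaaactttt

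The prt2 stretch is II:4442432-4442551 on the plus strand, that of nc-pho1 is II:4446249-4446368 on the plus strand, and that of nc-tgp1 is II:354225-354344 on the minus strand. TATATA lay 38 bases before the start of prt2, 37 bases before that of nc-pho1 and 30 bases before that of nc-tgp1, in the last 2 as part of a longer TATATATA run. CAGTCAC lay 75 bases before nc-pho1 and 64 bases before nc-tgp1, and was not found in the prt2 window. Both motifs were searched on both strands from 250 bases before to 50 bases after the start, where CAGTCAC was found in 4.58% and TATATA, which reads the same on both strands, in 28.0% of 6510 such windows of protein-coding and lncRNA genes. TATATA was also found 33 bases before the annotated start of pho84, while the windows of pho1, tgp1 and SPNCRNA.1343 held neither motif. The Pac1-TAP peaks covered the motifs of prt2 and nc-pho1, whereas those of nc-tgp1 fell outside the peak.

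SPBC8E4.02c, pho84 and pho1 lie one after the other on the plus strand and carried 2 peaks. The first peak spanned II:4442448-4443638 (1191 bp) and was paired with SPBC8E4.02c alone. The second spanned II:4444012-4449444 (5433 bp) and overlapped pho84, pho1 and the end of SPBC8E4.02c. It was the widest of the 88 peaks, beside 4875 bp for the next widest and a median of 1378.5 bp. Both peaks together spanned 6997 bp and covered 94.7% of that stretch. The centre of a peak is here the midpoint between its bounds.

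In the list SPBC8E4.02c was placed at II:4442574-4444191 (1618 bp). The first peak covered 1065 bp or 65.8% of it and had its centre in the gene, and the second reached only 180 bp or 11.1% of it. The list calls it a gene, but in the later RefSeq annotation the name SPBC8E4.02c is a synonym of prt2 (SPNCRNA.9001), an lncRNA of 3429 nt that runs on through most of pho84. The first peak is thus a peak at the 5′ part of prt2: it began 94 bp before the prt2 start, had its centre 501 bp after that start, and ended at base 1097 of prt2. A late-numbered antisense lncRNA, SPNCRNA.6615, lay wholly within the same peak, and ChIP-seq does not tell which strand was transcribed.

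pho84 (SPBC8E4.01c, listed at II:4444125-4446200, 2076 bp) was covered over its whole length and took up 38.2% of the second peak. The peak edge lay 113 bp before the listed pho84 start, or 89 bp before the RefSeq start, which stands 24 bp further upstream. The first 1870 nt of the RefSeq pho84 mRNA are also the end of prt2, so peak cover of pho84 and of the 3′ part of prt2 cannot be told apart. pho1 (SPBP4G3.02) was listed at II:4446373-4449053 (2681 bp), was likewise covered in full, took up 49.3% of the peak and held its centre. The listed pho1 is longer than the RefSeq pho1 of 1548 nt, because its start lies 1133 bp further upstream and only 14 bp after the start of prt. The listed pho1 thus holds nearly all of prt (2560 nt, also covered in full), and prt itself runs through 1413 bp of pho1. The centre of the second peak lay 369 bp after the prt start, in the prt sequence ahead of the pho1 mRNA, and the peak ended 391 bp past the pho1 end. On the minus strand, the late-numbered lncRNA SPNCRNA.6616 lay in the second peak over 95.3% of its length and took up 36.2% of the peak, and SPNCRNA.6617 (223 nt) lay wholly in it. Between pho84 and pho1 the list leaves a spacer of 172 bp, which the peak crossed.

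**Figure D1:**
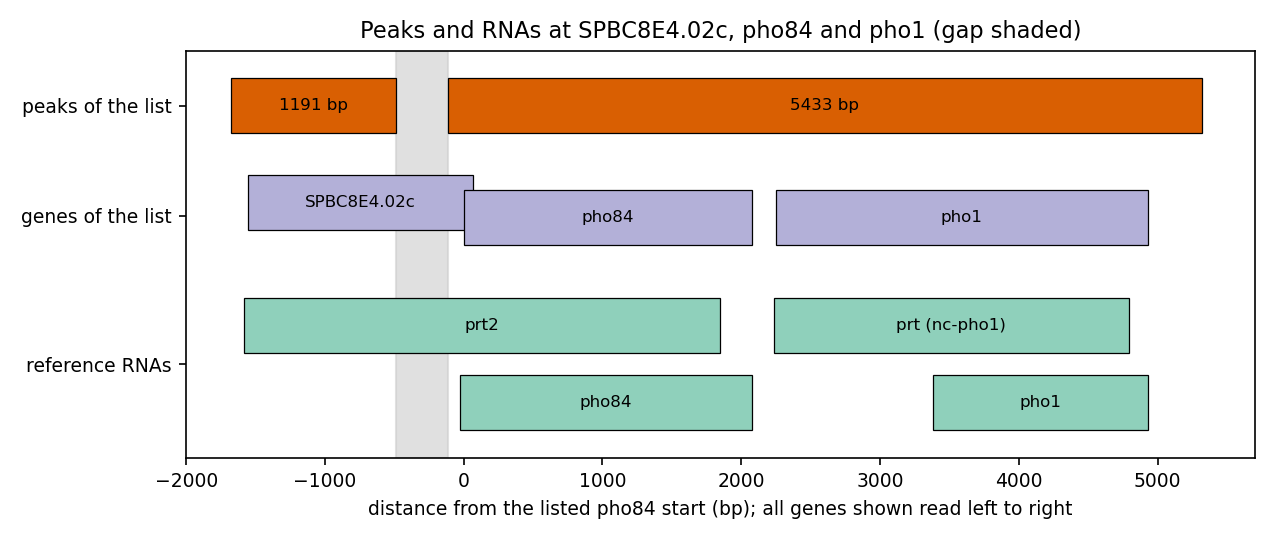
Peaks of the list (orange), genes as the list bounds them (violet) and RNAs as RefSeq bounds them (green), by distance in bp from the listed pho84 start. The 2 peaks are parted by a gap of 373 bp (grey) that falls inside SPBC8E4.02c and prt2, and the second peak runs on over pho84, prt and pho1.

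The peaks were separated by 373 bp (II:4443639-4444011), the second smallest of the 85 gaps between neighbouring peaks of the list, whose median was 99716 bp. The whole gap lay inside SPBC8E4.02c, at its bases 1066 to 1438, or at bases 1098 to 1470 of prt2. It ended 89 bp before the RefSeq pho84 start, where the second peak began, and so took in part of the window of 250 bases before pho84, with a TATAAA at 212 bases before the start (this motif, on either strand, was found in 47.1% of the 6510 windows). The TATATA closer to pho84 was under the second peak. Of SPBC8E4.02c 76.9% lay in one or other peak. On its left the cluster stood well apart, as the peak before it, at pgk1 (phosphoglycerate kinase), was 282943 bp away. The peak after it, at SPNCRNA.1696 and SPNCRNA.532, was closer, at 15565 bp, the 16th smallest of the 85 gaps. No peak was listed at the genes beside the cluster, ecl3 at 620 bp on the left and the lncRNA SPNCRNA.446 at 2727 bp and fub2 at 3633 bp on the right.

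A gene paired with more than 1 peak was rare in the list, with 5 such genes. Beside SPBC8E4.02c they were thi2 (thiazole synthesis for thiamine), whose peaks were 652 bp apart, thi9 (thiamine transport) and the ncRNA SPNCRNA.743, which share a pair of peaks 956 bp apart, and ape2 (an aminopeptidase), whose peaks were 4363 bp apart. The share of the gene in its peaks was 76.9% for SPBC8E4.02c, beside 72.3% for thi2, 71.5% for thi9, 35.8% for SPNCRNA.743 and 10.3% for ape2. Of the 85 gaps 4 were under 1000 bp, namely those at SPBC8E4.02c (373 bp), at snu2 and seb1 (236 bp, the smallest), at thi2 and at thi9. The peaks of snu2, the U2 small nuclear RNA, and seb1, which encodes a termination factor, lie on different genes, so the gap at SPBC8E4.02c was the smallest within a single gene. No peak was called within the gap, and the list gives no signal values, so the Pac1 signal there is unknown.

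**Figure D2:**
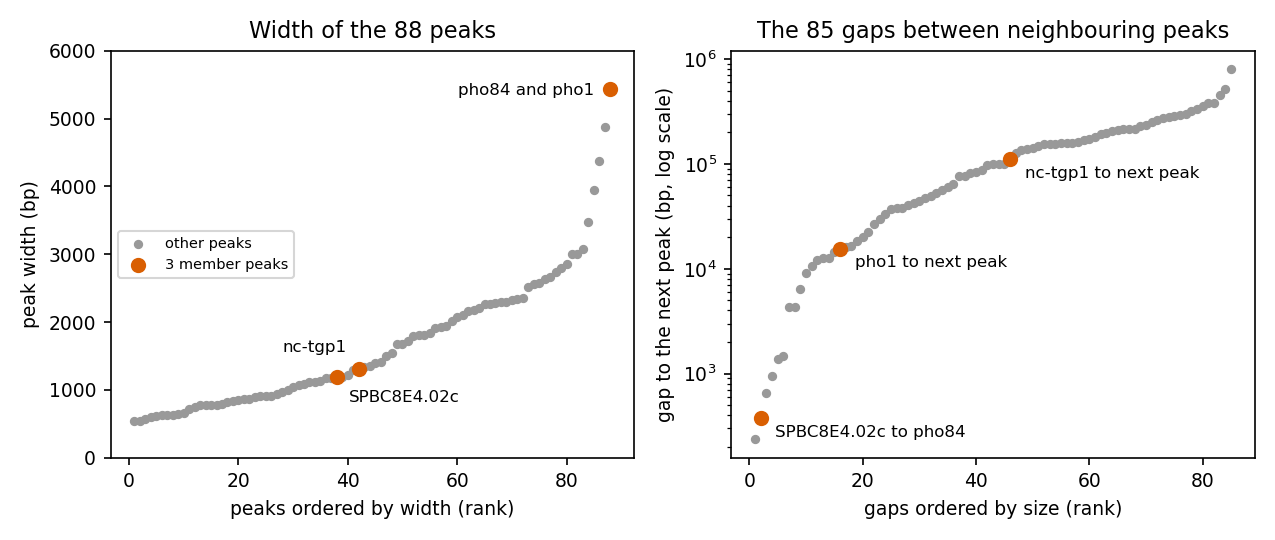
Left, width in bp of the 88 peaks in order of width. Right, gap in bp (log scale) from each peak to the next on its chromosome, in order of size, for 85 gaps. Orange points are the peaks at the described genes: 5433 bp at pho84 and pho1 is the widest, 1191 and 1316 bp lie below the median of 1378.5 bp, and the gap of 373 bp is the second smallest.

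The third peak lay near the other end of chromosome II, 4088191 bp from the cluster, at II:352941-354256 (1316 bp). It was the first peak of that chromosome, and the next, at snu4, was 111129 bp away. The list paired it with SPNCRNA.1343 only (II:354031-355573, 1543 bp, plus strand), but the overlap was 226 bp, or 14.6% of the RNA at its 5′ end and 17.2% of the peak, and the peak centre was not in it. When each of the 87 peaks with a gene was given the share taken by its largest listed gene, only 1 peak had a smaller share (7.50%), and the median over these peaks was 85.1%. Among the 45 ncRNA pairs of the list the median share of the RNA covered was 66.3% and 13 had less than SPNCRNA.1343, the nearest in share being SPNCRNA.1597 (16.2%), SPNCRNA.1551 (16.8%) and SPNCRNA.743 (11.6%).

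nc-tgp1 (SPNCRNA.1698), which is not named in the list, took up more of the peak than any other RefSeq RNA. It is 1900 nt long and is read from the minus strand toward tgp1, away from SPNCRNA.1343. The peak covered 1294 bp of nc-tgp1, which is 68.1% of this RNA from its 5′ end and 98.3% of the peak. It reached 22 bp beyond the nc-tgp1 start, had its centre 635.5 bp after that start, and left the last 606 bp uncovered. The 204 bp by which nc-tgp1 and SPNCRNA.1343 overlap head to head lay in the peak, and no strand can be assigned there. At 4 of the 88 peaks, this one included, a RefSeq gene that is not in the list took up more of the peak than any listed gene, lncRNAs numbered 2000 and above left aside. Of those late-numbered lncRNAs, the peak held 35.6% of SPNCRNA.4681 on the plus strand and 13 bp of SPNCRNA.4682 on the minus strand. SPNCRNA.4681 took up 79.0% of the peak and is antisense to nc-tgp1, so no strand can be assigned over that part either.

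tgp1 itself had no peak. The peak edge was 529 bp upstream of the tgp1 start and 571 bp upstream of its first codon, and nc-tgp1, which starts 1823 bp upstream of tgp1, overlaps tgp1 by 77 bp that the peak did not reach. On the other side the nearest genes were the tRNA gene SPBTRNAGLN.04 at 1663 bp and SPBC1271.08c at 2327 bp, and neither had a peak. Of the 3 genes that follow these lncRNAs, pho84 and pho1 were thus covered in full and tgp1 was not reached. Full cover of a listed gene was not rare, as it held for 45 of the 172 gene-peak pairs of the list. Of the lncRNAs, prt was covered in full, prt2 except for the gap, and nc-tgp1 except for its 3′ end. With no replicate values these differences were not tested. The centres of the 3 peaks lay 369 bp (prt), 501 bp (prt2) and 635.5 bp (nc-tgp1) after the start of an lncRNA that precedes a phosphate gene. As midpoints of the bounds they do not show where the signal was highest. The value for prt comes from the 5433 bp peak, which began 2347 bp before the prt start.

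**Figure D3:**
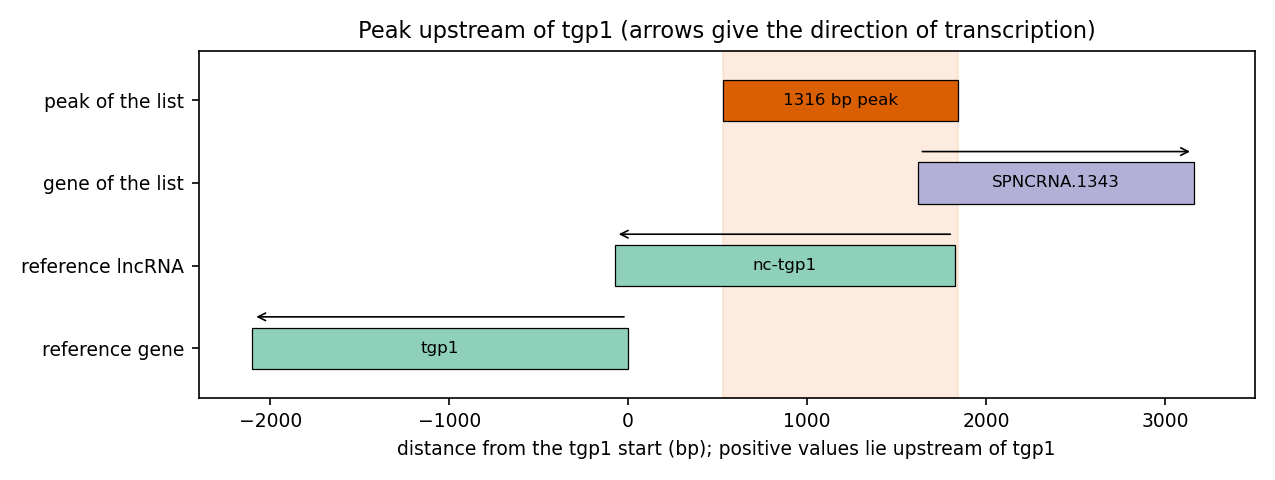
The peak of the list (orange), the listed SPNCRNA.1343 (violet) and the RefSeq bounds of nc-tgp1 and tgp1 (green), by distance in bp from the tgp1 start, with positive values upstream and arrows in the direction of transcription. The peak of 1316 bp covers the 5′ part of nc-tgp1, touches 226 bp of SPNCRNA.1343 and ends 529 bp short of tgp1.

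Hairpins are of interest because Pac1 cuts them. Predicted stems of at least 20 base pairs within a span of 150 nt were found in all 4 RNAs, taking prt2 for SPBC8E4.02c. Such stems are common in this genome: 90.8% of 1398 lncRNAs and 97.0% of 5113 protein-coding genes had at least 1, so their presence does not set these RNAs apart. prt2 had 12 of them (3.50 per kb), SPNCRNA.1343 had 12 (7.78 per kb), prt had 12 (4.69 per kb) and nc-tgp1 had 9 (4.74 per kb), beside 2.95 per kb over all lncRNAs. pho84 had 7 (3.33 per kb), pho1 had 5 (3.23 per kb) and tgp1 had 7 (3.33 per kb), beside 3.41 per kb over all protein-coding genes. The 7 stems of pho84 are also among the 12 of prt2, and the 5 of pho1 are also among the 12 of prt, so they are counted in both RNAs. Some stems share bases and are alternatives to each other, most of all in SPNCRNA.1343.

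Within the peaks lay 11 of the 12 stems of prt2, the 12 stems of prt, 4 of the 9 of nc-tgp1 and 2 of the 12 of SPNCRNA.1343. The peaks covered 32.0% (first peak) and 57.1% (second peak) of prt2, all of prt, 68.1% of nc-tgp1 and 14.6% of SPNCRNA.1343. The counts depend on this cover, so they do not show that stems are placed under peaks. The only prt2 stem outside reached from the gap to the edge of the second peak (bases 1403 to 1474). The stem with the highest share of paired bases within a peak is printed for each RNA, with paired bases in capitals, since these are the duplexes an RNase III could meet there. For prt2 the best stem ahead of pho84 is given as well. All sequences are from the ASM294v3 genome.
nc-tgp1 bases 1117 to 1165: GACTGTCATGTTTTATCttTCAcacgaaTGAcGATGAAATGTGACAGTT
prt2 bases 159 to 216: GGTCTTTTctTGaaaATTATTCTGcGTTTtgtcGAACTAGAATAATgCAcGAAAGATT
prt2 bases 1755 to 1824: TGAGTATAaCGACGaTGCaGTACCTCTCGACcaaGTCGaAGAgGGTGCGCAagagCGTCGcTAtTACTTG
nc-pho1 bases 1948 to 2011: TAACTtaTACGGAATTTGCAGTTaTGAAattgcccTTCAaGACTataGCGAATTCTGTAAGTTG
SPNCRNA.1343 bases 8 to 84: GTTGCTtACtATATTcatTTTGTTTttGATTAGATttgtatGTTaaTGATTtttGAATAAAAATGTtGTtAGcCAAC

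The nc-tgp1 stem (II:353070-353118, minus strand) had 20 base pairs with 81.6% of its bases paired, the highest share among the stems of the 7 RNAs folded. It begins with 17 paired bases in a row on its 5′ side and lies 1117 nt into the RNA, near the end of the part the peak covers. The stem of nc-tgp1 with the most base pairs lay outside the peak, at bases 1376 to 1519 (49 base pairs, 68.1% paired). That of SPNCRNA.1343 also lay outside, at bases 564 to 681 (43 base pairs, 72.9% paired). The prt2 stem ahead of pho84 (II:4442700-4442757, plus strand) had 23 base pairs (79.3% paired) and lay under the first peak. The second prt2 stem (II:4444296-4444365, plus strand) had 28 base pairs (80.0% paired) and lies in the pho84 coding sequence, where it is at bases 196 to 265 of the pho84 mRNA. The prt stem (II:4448306-4448369, plus strand) had 25 base pairs (78.1% paired) and lies at bases 801 to 864 of pho1. The SPNCRNA.1343 stem (II:354038-354114, plus strand) had 28 base pairs (72.7% paired) and falls in the stretch shared with nc-tgp1. These are predictions from sequence, and cleavage was not measured in these libraries.

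The lncRNAs that repress phosphate genes are also known for sites of Mmi1, an RNA-binding protein that directs RNAs to elimination and early termination. Its core motif is UNAAAC, searched here as TNAAAC on the sense strand. Of the 11 sites in prt2 (3.21 per kb) 10 lay within the peaks and 1 in the gap. prt had 6 sites (2.34 per kb), all within the peak, and nc-tgp1 had 6 (3.16 per kb), 5 of them within the peak. SPNCRNA.1343 had 3 (1.94 per kb) with 1 in the peak. As with the stems, the counts within peaks depend on how much of each RNA the peaks covered. Over all lncRNAs the rate was 2.00 per kb, 83.8% of them had at least 1 site, and 95% had at most 5.04 per kb, so none of these 4 lncRNAs exceeded that level. The form TTAAAC, often met in Mmi1 sites, was found 7 times in prt2 (2.04 per kb), 4 times in prt (1.56 per kb) and 2 times in nc-tgp1 (1.05 per kb), and not in SPNCRNA.1343, beside 0.51 per kb over all lncRNAs and up to 2.20 per kb in 95% of them. Among the coding genes, pho1 had 6 TNAAAC sites (3.88 per kb), all within the peak, with 4 of them within 150 nt from base 1410 on, near its 3′ end. This rate was just above the 3.83 per kb that 95% of protein-coding genes did not exceed. TTAAAC was found 5 times in pho1 (3.23 per kb), beside up to 1.53 per kb in 95% of protein-coding genes. pho84 had 5 TNAAAC sites (2.38 per kb) and tgp1 had 3 (1.43 per kb), beside 1.76 per kb over all protein-coding genes. Sites where prt2 runs through pho84, or prt through pho1, are counted in both RNAs.

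The 120 nt with the most sites in prt2, prt and nc-tgp1, the lncRNAs that precede phosphate genes, are shown because the sites stand close together there, with TNAAAC in capitals. Each stretch has 3 sites and lies within a peak.
prt2 bases 814 to 933: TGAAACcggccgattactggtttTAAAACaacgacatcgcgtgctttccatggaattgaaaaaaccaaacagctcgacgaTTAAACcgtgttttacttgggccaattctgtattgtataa
nc-pho1 bases 399 to 518: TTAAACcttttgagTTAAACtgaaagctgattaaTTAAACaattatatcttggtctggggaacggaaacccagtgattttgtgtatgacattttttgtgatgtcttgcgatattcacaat
nc-tgp1 bases 821 to 940: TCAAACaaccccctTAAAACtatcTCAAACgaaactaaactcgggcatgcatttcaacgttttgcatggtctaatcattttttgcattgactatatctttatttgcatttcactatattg

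In prt the 3 sites were all TTAAAC, at II:4446757-4446876 on the plus strand and ahead of the pho1 mRNA, which begins at base 1148 of prt. The prt2 stretch (II:4443355-4443474, plus strand) was in the first peak, ahead of the gap. The nc-tgp1 stretch (II:353295-353414, minus strand) held 2 TCAAAC and 1 TAAAAC. The poly(A) signal AATAAA occurred 2 times in prt2, first at base 402 and both times under the peaks, once in prt at base 568, and 3 times in nc-tgp1, with 1 of these under the peak. SPNCRNA.1343 had 3, of which 2 were under the peak. The rates were 0.58 per kb in prt2, 0.39 per kb in prt, 1.58 per kb in nc-tgp1 and 1.94 per kb in SPNCRNA.1343, beside 1.56 per kb over all lncRNAs.

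**Figure D4:**
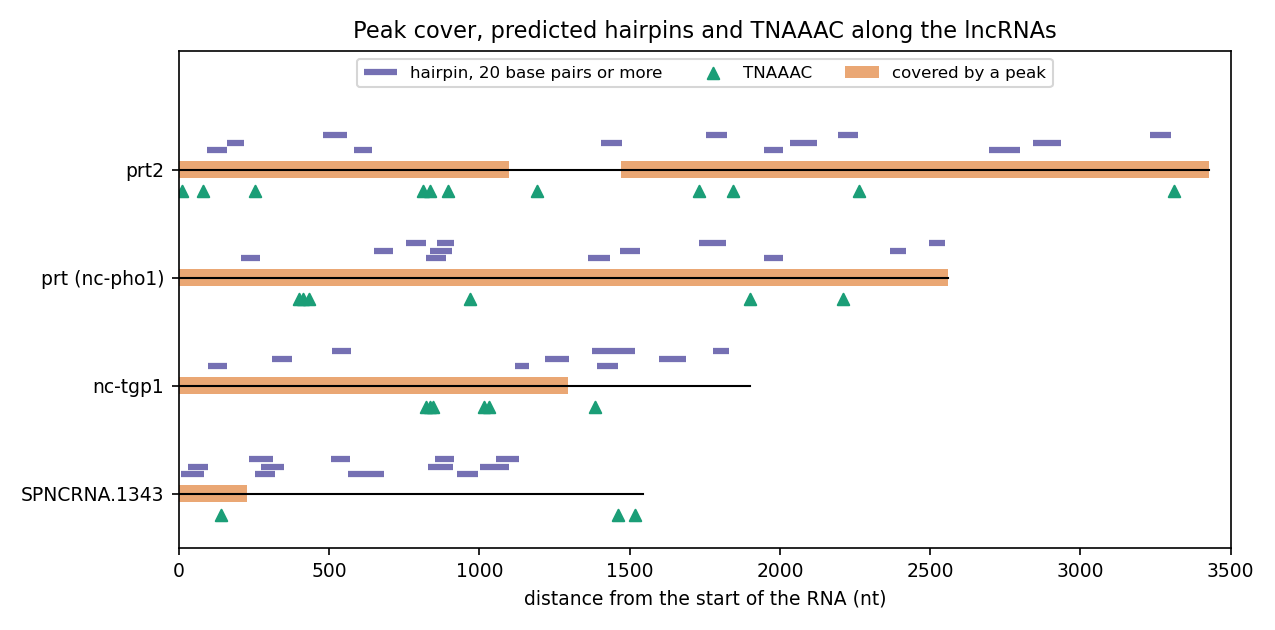
Stretches covered by a peak (orange), predicted hairpins of 20 or more base pairs (violet) and TNAAAC sites (green) along prt2, prt, nc-tgp1 and SPNCRNA.1343, by distance in nt from the start of each RNA. prt is covered throughout, prt2 except for the gap, nc-tgp1 over its first 1294 nt and SPNCRNA.1343 over its first 226 nt.

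Other genes of the phosphate pathway had no peak in the list. Of 15 genes of the pathway, pho84 and pho1 had a peak (2 genes, 13.3%), beside the 2.27% of all annotated genes. These 2 genes are themselves members chosen from the list, and of the other 13 genes 0 had a peak (upper limit of the interval 22.8%). That interval holds the 2.27% of all annotated genes, so the lack of a peak does not set the 13 genes apart. The distance of these 13 genes to the nearest peak was 529 bp for tgp1 and had a median of 41662 bp and a maximum of 309201 bp, at csk1, which encodes a kinase upstream of the pathway. vtc4, for polyphosphate synthesis, was 7268 bp and asp1, which makes inositol pyrophosphates, was 8828 bp from a peak. pho7, the transcription factor that switches on pho1, pho84 and tgp1, was 35978 bp from one.

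The nearest relatives of Pho84 and Pho1 in the same genome had no peak either (0 of 3 and 0 of 2). With 2.27% of all annotated genes overlapping a peak, this does not set the relatives apart. Of the Pho84-related transporters, pho841 (83.8% identical in protein sequence) was 216665 bp, pho842 (72.4%) was 50124 bp and pho843 (54.8%) was 108969 bp from the nearest peak. Of the 2 Pho1-related proteins, pho4 (58.2% identical), a thiamine-repressed acid phosphatase, was 18357 bp and SPBC21H7.03c (56.6%) was 53708 bp from one. Tgp1 had no relative at a BLASTP E-value of 1e-20 or below.

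Of 20 genes for factors that end or eliminate lncRNA transcripts, among them mmi1, rrp6, red1, pcf11, dhp1 and pac1 itself, 1 had a peak (5%, 95% Wilson interval 0.888% to 23.6%), beside the same 2.27%. This gene was seb1, whose product binds nascent RNA and the polymerase, and its peak lay 236 bp from that of snu2. Among the 20, nrd1 was taken by name only. The paper states that the budding yeast termination pathway with Nrd1 is not conserved in fission yeast.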

How the data were processed

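ChIP-seq of TAP-tagged Pac1 (2 immunoprecipitates, 2 inputs) was used through 1 deposited list. The authors used Trimmomatic for trimming and HISAT2 for mapping (ASM294v2), called peaks with MACS2 in each replicate against its input, keeping duplicates, and merged both replicates with MSPC. The list deposited by the authors gives 1 combined p-value per peak, peak bounds and overlapping genes with their bounds. It has no depth, height or value per library, so no test between samples was run; positions, widths and overlaps are described. Wilson intervals (95%) cover counting error only. Columns of other samples were not found.

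The 4 genes were those whose listed name is pho1, pho84, SPBC8E4.02c or SPNCRNA.1343. Members and gene lists were chosen with earlier results of these data known. Also named were tgp1, genes overlapping or beside the peaks, list genes with a peak or those closest to and farthest from one, genes in more than 1 peak, gaps under 1000 bp, the 3 ncRNAs nearest to SPNCRNA.1343 in share covered, and the closest related proteins. Other list genes named without a value serve as examples.

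RefSeq sequence and annotation were of ASM294v3, a later build. Of 167 listed names 155 matched, 53 with both bounds identical and 144 with at least 1; none was shifted as a whole, SPNCRNA.1343 had identical bounds and pho84 and pho1 identical ends. Reference genes are given by distance only; printed sequences carry ASM294v3 coordinates. Of 12606 genes, 5736 lncRNAs numbered 2000 and above, which the list did not name, were left out, leaving 6870, of which 156 overlapped a peak. Hairpins were single-branch stems of at least 20 base pairs with interior loops of at most 4 nt a side (RNALfold, ViennaRNA 2.7.2, span 150 nt). The step found 39 of 40 planted stems without mismatches, and called none in 40 sequences without one. Those sequences were drawn without G to avoid structure, so the check gives no rate of false calls in genomic sequence. Nor does it cover stems with bulges. BLASTP 2.17.0 (E-value 1e-20) and Python 3.11.15 with pandas 2.3.3 were used. Alternatives were an overlap of 50 bp, the peak centre, p-values of at most 1e-200, RefSeq bounds, 0-based starts, spans of 100 and 300 nt and either strand.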

Additional observations from a re-analysis of the deposited data

How the results depend on the processing

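The 5 gene-peak pairs of the 4 genes stayed 5 with at least 50 bp of overlap and with a p-value of at most 1e-200. Neither cut could remove a pair, since the smallest overlap was 180 bp and the peaks were listed at a p-value of 0. The pairs also stayed 5 with RefSeq gene bounds, and became 2 (SPBC8E4.02c and pho1) where the gene had to hold the peak centre. Under the same centre rule the phosphate pathway genes with a peak became 1 in place of 2, since the centre of the shared peak lies in pho1 as the list bounds it and not in pho84; by RefSeq bounds it lies in prt, ahead of pho1. The factor genes with a peak stayed 1 under both alternatives tried. The gap was 374 bp in place of 373 bp if peak starts count from 0. Hairpins of at least 20 base pairs were found in 4 of the 4 RNAs also with spans of 100 and 300 nt. Allowing a stem on either strand could not lower this count, since the sense strand alone gave 4. The antisense strand was not examined by itself. No paired analysis was possible because 1 value per peak stands for both replicates, and for the same reason no replicate could be left out. The bounds of a peak may depend on read depth and on the peak caller's settings, which the list does not allow to be varied.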
